A study of Mus musculus with 7 samples.

Results

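The genes described here encode the chains of the fibril-forming collagens of types I, III and V and of the microfibrillar collagen of type VI: Col1a1, Col1a2, Col3a1, Col5a1, Col5a2, Col5a3, Col6a1, Col6a2 and Col6a3. They are 9 of 21900 mouse protein-coding genes. They were set beside the places where the AP-1 protein JUNB was called as bound by CUT&RUN, an assay that cuts and sequences DNA around an antibody-held protein. Any peaks of the 4 JUNB lists sharing 1 bp or more were merged, which gave 12655 regions, and each region went to the gene whose nearest end lay within 100 kb of the region's median summit. The 9 collagen genes received 26 regions.

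The cells were a line of mouse embryonic fibroblasts, iMGT-Myh6-eGFP-MEF, which carries a doxycycline-inducible set of the cardiac factors Mef2c, Gata4 and Tbx5 (MGT) and, by its name, a Myh6-eGFP reporter. The cells received an siRNA against the sulfotransferase gene Chst7 (siChst7, 2 JUNB libraries) or a control siRNA (siControl, 2 JUNB libraries). The cells of all 4 libraries had MGT induced with 1 µg/mL doxycycline and were collected at day 1. The labelled transfection protocol lists siJunb, siH1f0 and siControl in place of siChst7, so the groups rest on the titles and the treatment labels. IgG libraries, 3 in number, were not used here, and the antibody background at these genes is therefore not known. Peak lists hold no expression, so neither the labelled cell type nor the loss of Chst7 could be checked.

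Fibrillar collagens are secreted as triple helices that assemble into the cable-like fibrils of connective tissue, and type VI collagen forms beaded microfibrils that surround cells. Fibroblasts are their main source, and high type I collagen is a familiar mark of active and scar-forming fibroblasts. AP-1 dimers of Jun and Fos proteins bind the DNA letters TGANTCA, often at enhancers away from gene starts. The question the lists can address is at which of these genes JUNB was called, and whether the siRNA groups differ in it.

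JUNB was not called at the 250 bases before the annotated starts of the 7 collagen genes that could be checked, and seldom at those of all genes. The RefSeq promoter table (GRCm38.p6, the assembly of mm10) held 7 of the 9 genes, without Col1a1 and Col5a2. Of the 8 start windows of these 7 genes, 0 overlapped a region of any list. Over all genes in that table, 3.77% of 32851 such windows did. At so low a share, 0 of 8 does not set the collagen genes apart. The letters TGANTCA, which read the same on both strands, stood in 1 of the 8 collagen windows and in 6.75% of all windows. Among all windows 8.89% of the 2217 with these letters overlapped a JUNB region, against 3.40% of the 30634 without. The window of Col6a1 is shown because it holds the letters (in capitals, beginning 90 bases before the start) and no JUNB region. Col1a2 is shown because its nearest regions lie inside the gene, and Col3a1 because it received no region. The windows lie at chr10:76726045-76726294 (minus strand), chr6:4505368-4505617 (plus strand) and chr1:45311288-45311537 (plus strand) and run 5′ to 3′.
Col6a1: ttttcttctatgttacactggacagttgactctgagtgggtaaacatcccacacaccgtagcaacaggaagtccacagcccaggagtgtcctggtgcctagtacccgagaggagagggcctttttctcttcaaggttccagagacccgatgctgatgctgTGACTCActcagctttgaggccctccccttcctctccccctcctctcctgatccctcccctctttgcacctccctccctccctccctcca
Col1a2: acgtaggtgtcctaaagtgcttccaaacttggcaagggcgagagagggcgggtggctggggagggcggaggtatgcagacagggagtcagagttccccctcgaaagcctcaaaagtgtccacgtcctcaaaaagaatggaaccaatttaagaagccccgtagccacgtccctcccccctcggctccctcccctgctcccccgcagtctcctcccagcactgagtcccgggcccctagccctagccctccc
Col3a1: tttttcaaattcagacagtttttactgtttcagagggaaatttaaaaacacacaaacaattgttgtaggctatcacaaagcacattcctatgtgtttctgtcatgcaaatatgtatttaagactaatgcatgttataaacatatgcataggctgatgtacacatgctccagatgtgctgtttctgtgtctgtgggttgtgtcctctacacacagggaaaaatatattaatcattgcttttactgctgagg
The closest summit to the Col6a1 start lay 4.29 kb away and was called in siControl replicate 2 alone. That to the Col1a2 start lay 1.75 kb into the gene, and that to the Col3a1 start lay 183.8 kb away in Col5a2. The absence of the letters from a window says only that they are not in those 250 bases.

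Of the 9 collagen genes, 8 had a region in at least 1 list, where 25.1% of all protein-coding genes had one. In both siChst7 lists 4 of 9 had a region, where 11.3% of all genes did, and in both siControl lists 6 of 9 did, where 11.0% of all genes did. A region in all 4 lists was found for Col1a1, Col5a1, Col5a2 and Col6a3, which is 4 of 9, where 8.32% of all genes had one. The collagen genes drew 2.07 regions per 100 kb of the genome nearest to their ends, against 0.649 over all genes. For regions in all 4 lists the values were 0.319 and 0.142 per 100 kb. These are descriptions of a chosen set of genes and carry no test.

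**Figure D1:**
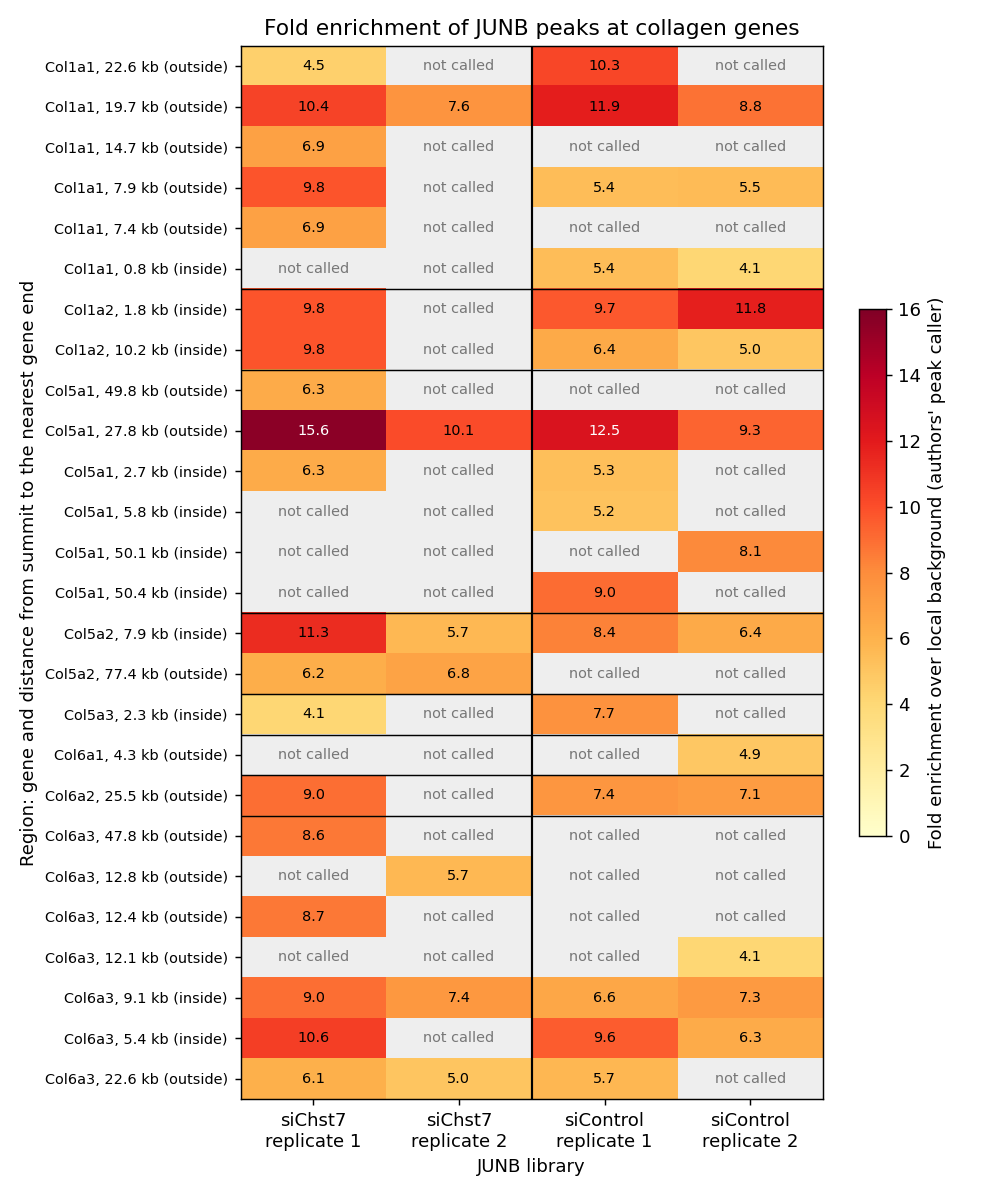
Fold enrichment over local background, as the authors' peak caller gave it, for each of the 26 regions (rows, named by gene and by the distance from the summit to the nearest gene end) in each JUNB list (columns). Grey cells were not called. Rows called in every column are the 4 regions at Col1a1, Col5a1, Col5a2 and Col6a3, and the siChst7 replicate 2 column has 7 called cells.

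Col1a1 and Col1a2, whose chains combine as the type I trimer, differed in their number of JUNB regions and in whether any was in all 4 lists. Col1a1 (chromosome 11, 94936224 to 94953042, mm10) had 6 regions, of which 5 lay beyond its lower-coordinate end and 1 just inside it. The region 19.7 kb outside (chromosome 11, 94916272 to 94916868) had folds of 10.4 and 7.57 in siChst7 replicates 1 and 2, and 11.9 and 8.84 in siControl replicates 1 and 2. It was the only Col1a1 region in all 4 lists, and its summits lay within 86 bp of each other. The region 7.89 kb outside (94927788 to 94928431) had a fold of 9.81 in siChst7 replicate 1, and 5.42 and 5.52 in the siControl lists. A region 22.6 kb outside (94913347 to 94914133) was called once in each group, with 4.49 in siChst7 replicate 1 and 10.3 in siControl replicate 1. The Col1a1 region closest to the gene, 0.79 kb inside it (94936851 to 94937103), was in neither siChst7 list and had folds of 5.42 and 4.06 in the siControl lists. Its siControl summits stood 1 bp apart, but its −log10 q was 4.58 and 2.21, the second near the lists' lower limit of 2. The other 2 Col1a1 regions, 14.7 and 7.42 kb outside, were called in siChst7 replicate 1 alone, with folds of 6.90 and 6.92.

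Col1a2 (chromosome 6, 4505618 to 4541543), the gene of the second type I chain, had 2 regions, both inside the gene and both missing from siChst7 replicate 2. The region 1.75 kb after the start (4507008 to 4507775) had folds of 9.81 in siChst7 replicate 1, and 9.66 and 11.8 in siControl. The region 25.7 kb after the start (4530729 to 4532192) had folds of 9.81 in siChst7 replicate 1, and 6.41 and 4.97 in siControl. The groups overlapped at the first of these, and at the second the called siChst7 value was above both siControl values. That siChst7 value came from replicate 1 alone. Over the JUNB regions called in every list, the median fold was 10.6 in siChst7 replicate 1 and 7.68 in siChst7 replicate 2. It was 8.90 and 8.08 in siControl replicates 1 and 2. The order at the second region was not particular to Col1a2. It was the same at the regions of Col1a1 at 7.89 kb, Col6a2 and Col6a3 at 5.36 kb, all also missing from siChst7 replicate 2 alone. Its share over all regions is not given here.

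Col3a1 (chromosome 1, 45311538 to 45349706), which encodes the homotrimeric type III collagen of skin and vessels, received no region in any list. The length of genome nearest to its ends was 150.5 kb, more than the 65.0 kb of Col1a1. No region lay in the 24.6 kb between it and its neighbour Col5a2, and the nearest to the gene was 145.7 kb away, inside Col5a2. An absent region means that no peak passed the authors' threshold, and signal below it cannot be seen in peak lists.

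Type V collagen starts fibrils and limits their width, and its genes held the collagen region with the highest folds in siChst7. Col5a1 (chromosome 2, 27886381 to 28039510) had 6 regions. The region 27.8 kb upstream (27858443 to 27858778) had folds of 15.6 and 10.1 in the siChst7 lists, and 12.5 and 9.26 in the siControl lists. The groups overlapped there, and its −log10 q was 27.7 and 13.1 in siChst7 and 19.1 and 11.5 in siControl. Within each list its fold stood at percentile 94.6 and 84.4 in siChst7 and at 90.6 and 79.4 in siControl, so that it ranked high everywhere. A region 2.69 kb after the start (27888617 to 27889379) had a fold of 6.35 in siChst7 replicate 1 and 5.34 in siControl replicate 1. Of the other 4 regions, 1 was in siChst7 replicate 1 alone (49.8 kb upstream, fold 6.35) and 3 inside the gene were each in a single siControl list, with folds of 5.15 to 9.02.

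Col5a2 (chromosome 1, 45374331 to 45503282) had 2 regions, called in both siChst7 lists. The region 7.92 kb inside its higher-coordinate end (45495012 to 45495701) had folds of 11.3 and 5.68 in siChst7, and 8.35 and 6.38 in siControl. The siChst7 libraries lay on either side of the siControl libraries. The region 77.4 kb beyond that end (45580369 to 45580994) had folds of 6.22 and 6.77 in siChst7 and was in neither siControl list. Such siChst7-only regions made up 3.85% of the collagen regions and 3.88% of all regions. With lists of equal length the collagen genes had 0 of them. No other protein-coding gene end was closer to the region 77.4 kb out, the next being that of Wdr75 at 214.5 kb. Col5a3 (chromosome 9, 20770050 to 20815117), the third type V gene, had 1 region 2.29 kb after its start (20812572 to 20812927), with a fold of 4.08 in siChst7 replicate 1 and 7.73 in siControl replicate 1.

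The type VI genes ranged from a single call to the most regions of the set. Col6a3 (chromosome 1, 90766860 to 90844001), which encodes the longest type VI chain, had 7 regions, a number reached by 0.699% of all genes. A region 9.12 kb after its start (90834341 to 90835486) had folds of 8.98 and 7.38 in siChst7, and 6.61 and 7.29 in siControl. Both siChst7 folds were above both siControl folds there, with 7.38 and 7.29 next to each other. Over the JUNB regions called in every list, the median fold was 10.6 and 7.68 in siChst7 replicates 1 and 2. It was 8.90 and 8.08 in siControl replicates 1 and 2. Each fold of this Col6a3 region was below that median of its own list. At the Col1a1, Col5a1 and Col5a2 regions called in every list, the folds of the groups overlapped. How often regions called in every list have both siChst7 folds above both siControl folds is not given here. Whether the order of the groups is particular to this Col6a3 region was therefore not tested. A region 5.36 kb after the start (90838358 to 90839296) had folds of 10.6 in siChst7 replicate 1, and 9.56 and 6.32 in siControl, and was missing from siChst7 replicate 2. A region 22.6 kb upstream (90866451 to 90867046) had folds of 6.10 and 5.05 in siChst7 and 5.74 in siControl replicate 1. Beyond the far end of the gene, a region 47.8 kb out was in siChst7 replicate 1 alone (fold 8.64), and 3 short regions lay side by side 12.1 to 12.8 kb out, each in a different list.

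Col6a2 and Col6a1, which encode the other two main type VI chains, lie 85.2 kb apart on chromosome 10 with no protein-coding gene between them, and each had 1 region. The Col6a2 region stood in that gap, 25.5 kb upstream of Col6a2 (76648870 to 76649390), with folds of 8.95 in siChst7 replicate 1, and 7.44 and 7.13 in siControl. Its summits lay within 8 bp of each other in those 3 lists. The Col6a1 region, 4.29 kb upstream of the start (76730293 to 76730517), was called in siControl replicate 2 alone with a fold of 4.89.

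**Figure D2:**
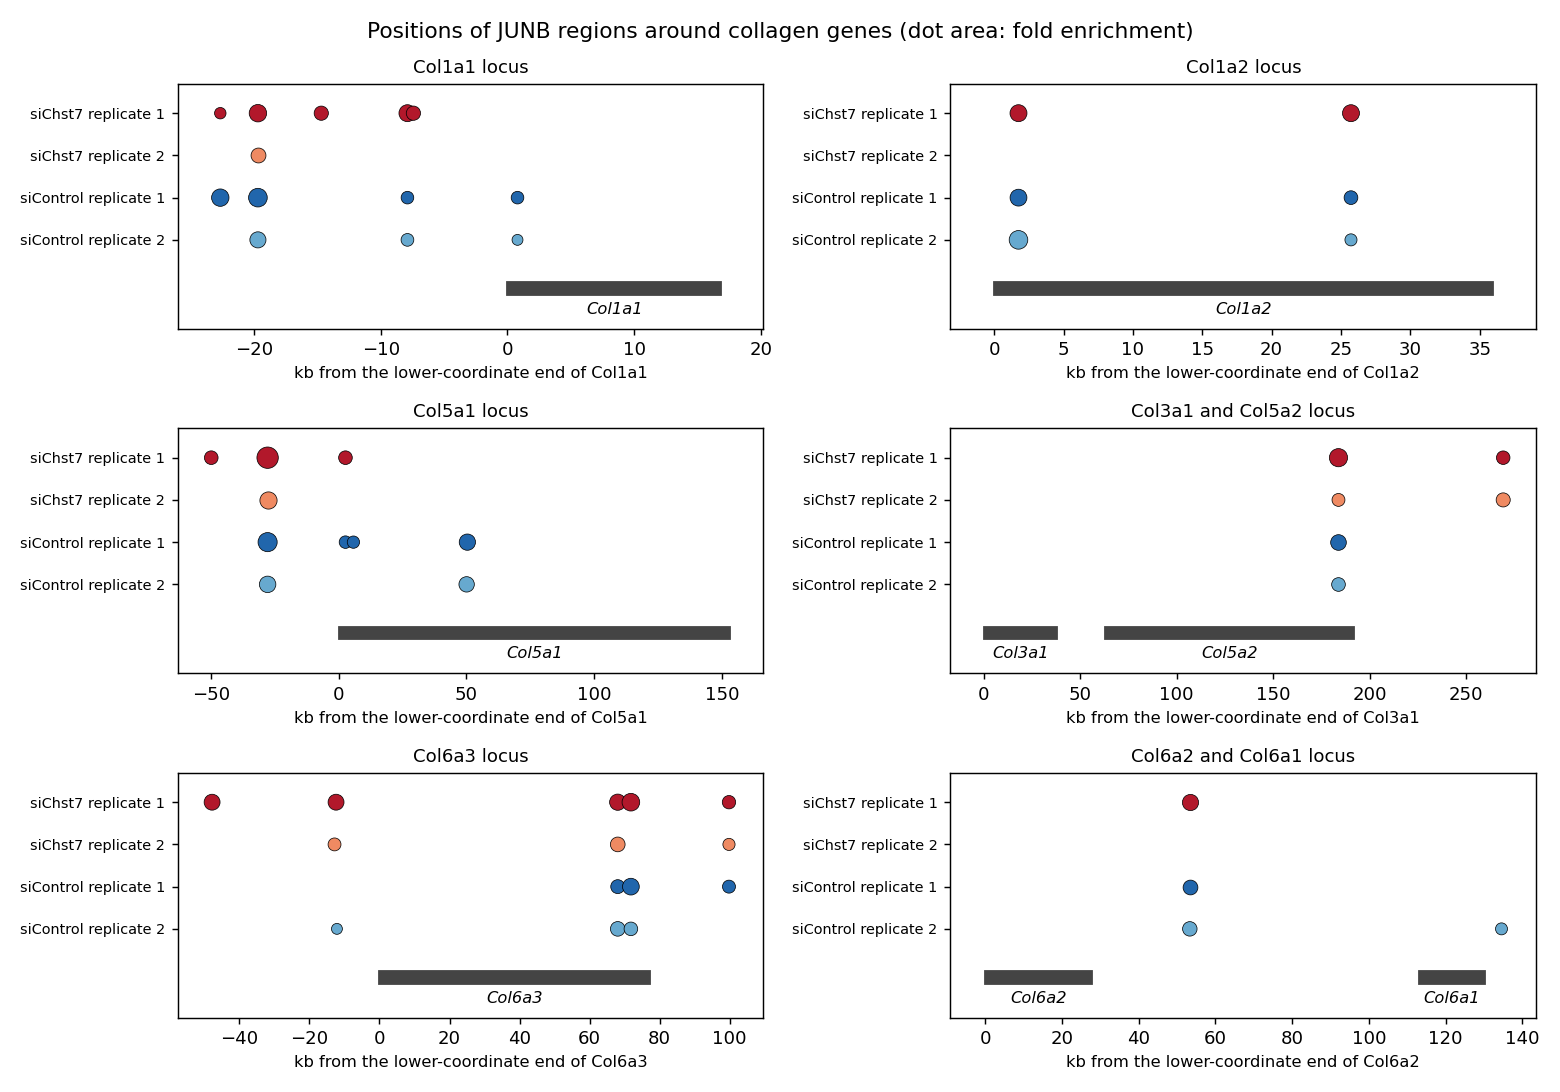
Median summits of the regions in each JUNB list (dots, area proportional to fold enrichment) in kb from the lower-coordinate end of the named gene, with gene bodies as dark bars. Of the 6 Col1a1 regions, 5 lie within 22.6 kb outside its lower-coordinate end and 1 just inside, and Col3a1 has none over its body. Col5a3 is not drawn.

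The 26 collagen regions had a median width and a median distance to a gene end close to those of other JUNB regions. Their median width was 473 bp, against 454 bp over all regions. Their median distance was 12.3 kb, against 13.1 kb over all regions with a gene. The 4 collagen regions in all 4 lists were narrower, with a median width of 643.5 bp, against 928 bp for all such regions with a gene. By position, 11 of 26 (42.3%) lay inside the gene they were given to, against 51.8% of all regions with a gene. Within 1 kb of a gene end was 1 of 26 (3.85%), the siControl-only Col1a1 region, against 13.9%.

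Within its list, the median collagen peak stood at percentile 73.3 of fold in siChst7 replicate 1 and 51.2 in siChst7 replicate 2, and at 61.8 in siControl replicate 1 and 47.5 in siControl replicate 2. Both groups thus had a library with its median near the middle of its list. The highest collagen folds were 15.6 and 10.1 in the siChst7 lists and 12.5 and 11.8 in the siControl lists, where the highest folds of any region were 101.5 and 91.0, and 63.3 and 81.3. Percentiles from lists of unequal length were not compared between groups.

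**Figure D3:**
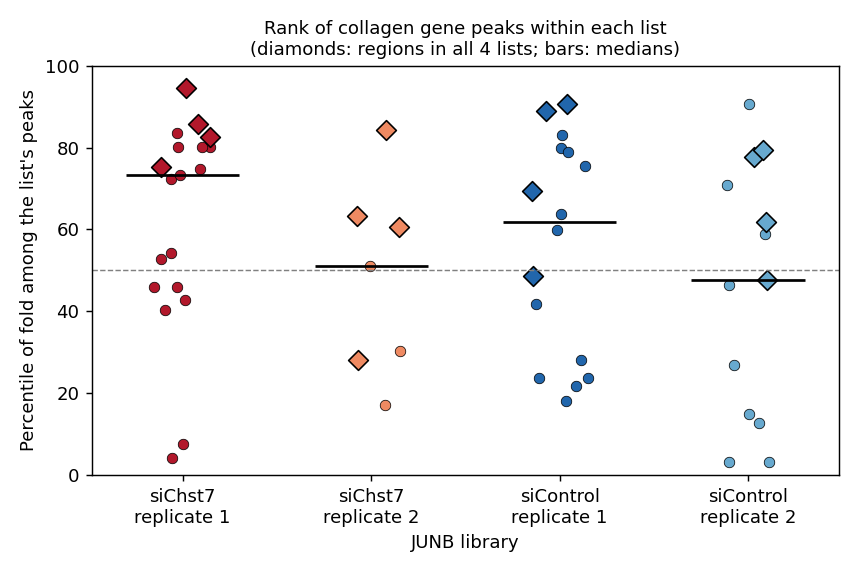
Percentile of each collagen peak's fold among all peaks of its list (vertical axis, 0 to 100) by JUNB library, with diamonds for the 4 regions in all 4 lists, circles for the others and bars for medians. The dashed line marks percentile 50. Values run over most of the scale, with medians of 73.3 and 51.2 in siChst7 and 61.8 and 47.5 in siControl.

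By nearest gene end, the numbers of collagen regions in the siChst7 and siControl libraries overlapped. There were 19 and 7 regions in siChst7 replicates 1 and 2 (mean 13.0 ± 8.49, SD, n = 2), and 16 and 13 in siControl replicates 1 and 2 (mean 14.5 ± 2.12, SD, n = 2). The siChst7 libraries were the highest and the lowest of the 4. The difference, siChst7 minus siControl, was −1.5 regions (two-sided exact permutation over 4 libraries, p = 1, smallest possible p = 0.333). List length moved with these numbers: the lists held 10163 and 4735 peaks in siChst7, and 6469 and 5827 in siControl, in the same order. As shares of a list's regions, the collagen regions made up 0.189% (95% exact Clopper-Pearson interval 0.114 to 0.295) and 0.152% (0.0610 to 0.312) in siChst7, and 0.253% (0.145 to 0.410) and 0.230% (0.122 to 0.393) in siControl. Both siChst7 shares were below both siControl shares, with intervals that overlap and cover counting error only. With the best 4735 peaks of each list there were 11 and 7 collagen regions in siChst7, and 12 and 9 in siControl, and the difference was again −1.5 (exact permutation p = 0.667). When regions went instead to every gene whose body with 5 kb on each side held the summit, there were 7 and 2 in siChst7, and 10 and 8 in siControl. The difference was then −4.5 (exact permutation p = 0.333, the smallest these libraries allow), with both siChst7 libraries below both siControl libraries. The numbers over all genes under this gene-body rule are not given here, and the lists kept their unequal lengths. Whether the order is particular to the collagen genes was therefore not tested. Within 20 kb of a gene end there were 12 and 4 in siChst7, and 11 and 10 in siControl, a difference of −2.5 (exact permutation p = 1). Without siChst7 replicate 2 the difference by nearest gene end was 4.5, without siChst7 replicate 1 it was −7.5, without siControl replicate 1 it was 0, and without siControl replicate 2 it was −3.

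**Figure D4:**
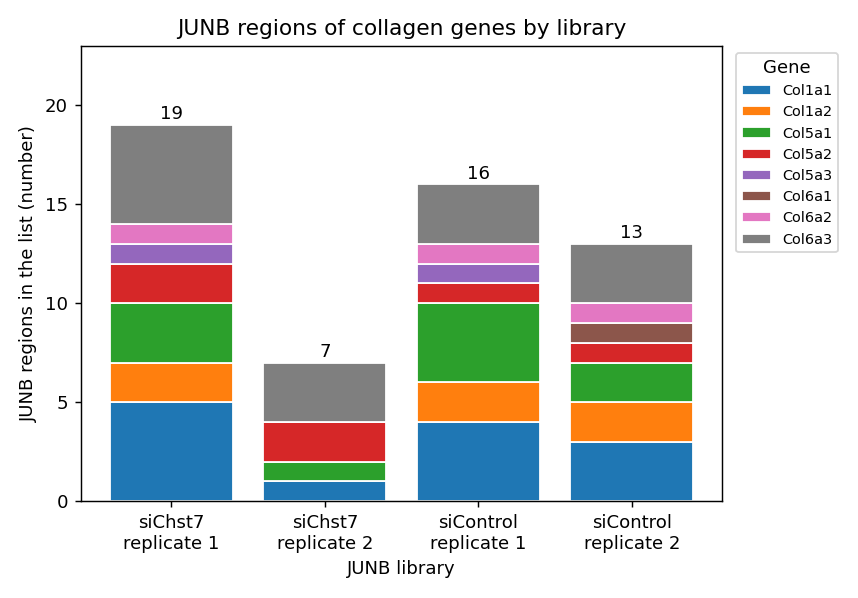
Number of JUNB regions given to the collagen genes in each JUNB library, stacked by gene. The siChst7 bars stand at 19 and 7 and the siControl bars at 16 and 13.

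By library pattern, 4 of 26 collagen regions (15.4%) were in all 4 lists, against 22.0% of all regions, and 11 (42.3%) were in 1 list, against 46.7%. The regions missing from siChst7 replicate 2 alone numbered 5 (19.2%), against 7.12% of all regions, and were those of Col1a1 at 7.89 kb, Col1a2 (both), Col6a2, and Col6a3 at 5.36 kb. Their folds in siChst7 replicate 1 were 8.95 to 10.6. Group-only regions were 1 in siChst7 (3.85%, the Col5a2 region 77.4 kb out), against 3.88% of all regions, and 1 in siControl (3.85%, the Col1a1 region just inside the gene), against 1.60%. With lists of equal length there were 0 of either kind. The Col1a1 region was also lost from siControl replicate 2 at a q of 0.001 or a fold of 5. Leaving out siChst7 replicate 2 gave 6 siChst7-only regions (24.0%), against 34.3% of all regions under the same omission. Leaving out siChst7 replicate 1 gave 2 (9.09%), against 10.8%, and leaving out siControl replicate 1 gave 2 (8.33%), against 8.16%. Without siControl replicate 2 the siChst7-only count was 1 (4.35%), against 6.45%. The siControl-only count was 5 (22.7%), against 12.1% of all regions, without siChst7 replicate 1. It was 4 (16.7%), against 8.38%, without siControl replicate 1, and 3 (13.0%), against 10.7%, without siControl replicate 2, and 1 of 25, against 2.09%, without siChst7 replicate 2. When peaks less than 500 bp apart were joined, an alternative chosen after seeing the data, the neighbouring siControl peaks 50.1 and 50.4 kb into Col5a1 became a further siControl-only region. The 3 side-by-side Col6a3 peaks then became a single region in both siChst7 lists and siControl replicate 2, spanning 984 bp.

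Members with several regions had numbers by list that few other genes shared, while those with 1 or 0 had common ones. Col6a3 had 5 and 3 in siChst7 and 3 and 3 in siControl, which 5 other genes matched exactly. The closest to it in mean fold (7.01) were Jcad (7.07), Mafk (6.93) and Cpe (7.47). Col1a1, with 5 and 1 in siChst7 and 4 and 3 in siControl, was matched by 1 gene, and Col5a1, with 3 and 1 in siChst7 and 4 and 2 in siControl, by 1. Col1a2 was matched by 8 and Col5a2 by 31. The single-region genes Col5a3, Col6a2 and Col6a1 were matched by 266, 245 and 192, and Col3a1 by the 16401 other genes with no region. This likeness rests on 4 libraries.

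Genes that work with these collagens had JUNB regions in part. In 6 lists with 63 genes, 35 (55.6%) had a region in at least 1 JUNB list, against 25.1% of all genes. In both siChst7 lists 14 (22.2%) did, against 11.3% of all genes. In both siControl lists 9 (14.3%) did, near the 11.0% of all genes, and in all 4 lists 8 (12.7%), against 8.32%. Among receptors and cell-surface partners of collagen, 5 of 11 (45.5%) had one in both siChst7 lists and 3 of 11 (27.3%) in both siControl lists, against 11.3% and 11.0% of all genes. Itgb1, the shared beta chain of the collagen-binding integrins, had 2 regions in all 4 lists. The stronger had folds of 25.9 and 23.1 in siChst7, and 31.1 and 27.1 in siControl, above any collagen region. Itga11, the alpha chain that pairs with it to bind fibrillar collagen, also had 2, the stronger 53.1 kb from the gene with folds of 13.8 and 11.9 in siChst7, and 12.8 and 14.0 in siControl.

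Enzymes that fold and trim collagen had regions in both lists of a group at about the share of all genes. In at least 1 list, 7 of 18 folding and processing genes (38.9%) had a region, against 25.1% of all genes. In both siChst7 lists 3 (16.7%) did and in both siControl lists 2 (11.1%), against 11.3% and 11.0% of all genes. Those in all 4 lists were Adamts14, a procollagen N-propeptidase gene (folds 7.35 and 8.78 in siChst7, 12.2 and 8.70 in siControl), and P4ha1, a prolyl hydroxylase subunit gene (7.66 and 8.48 in siChst7, 5.51 and 6.49 in siControl). Of 5 crosslinking genes, 1 (20.0%) in each group had one, Loxl1 (folds 10.2 and 7.34 in siChst7, 8.20 and 5.65 in siControl). Fibril regulators gave 2 of 12 (16.7%) in each group. The shares of all genes beside both lists are again 11.3% and 11.0%. Thbs2, a matricellular protein gene among the fibril regulators, had 2 regions in all 4 lists. The stronger of these, 88.8 kb from the gene, had folds of 6.92 and 7.57 in siChst7, and 5.80 and 13.7 in siControl.

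Among the 17 other collagen genes listed, only Col27a1 had a region in all 4 lists, where 8.32% of all genes had one. That was 1 of 8 fibrillar and type VI genes (12.5%) and 0 of 9 fibril-associated genes. Of 8 other fibrillar and type VI genes, 3 (37.5%) had a region in both siChst7 lists and 1 (12.5%) in both siControl lists, against 11.3% and 11.0% of all genes. Col27a1, a fibrillar collagen gene, had folds of 12.5 and 10.4 in siChst7, and 10.3 and 9.32 in siControl. Of 9 fibril-associated collagen genes, 0 had a region in both lists of either group, and 4 (44.4%) had one in some list, against 25.1% of all genes. Basement membrane and further collagen genes were not examined. Differences between these lists were not tested.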

How the data were processed

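JUNB CUT&RUN peak lists of 2 siChst7 and 2 siControl libraries were used. Bowtie2, MACS3 and mm10 are named in the submitters' processing notes. Versions, settings and the use of IgG as control are not given in the sources used here. The deposited lists give, for each peak of each library, a fold enrichment (a ratio from the authors' peak caller), −log10 p-values and q-values, and a score that was not used. Lists were matched to libraries by the peak names. Per the labels, 30 M reads were made per library. The true depth is unknown here, and a missing region can hold signal below the threshold.

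Peaks overlapping by 1 bp were joined, and each region went to the protein-coding gene of RefSeq (GRCm38.p6) with the nearest end within 100 kb. Where peaks of a list shared a region, the highest fold was used. Strand came from the promoter table. Coordinates are 1-based. Region numbers of the groups were tested by exact permutation over the 4 libraries, two-sided. The titles call the replicates biological. Whether they came from separate cultures is not stated, so p-values cover only the spread among these samples. The members, gene lists and tests were chosen with earlier results of these data known. All members were described, with every region in 2 or more lists by position, and from each gene list up to 2 genes with the most regions in all 4 lists. Joining and gene assignment were checked on simulated lists. The planned motif search at region summits was not run. Python 3.11.15 was used with pandas 2.3.3, NumPy 2.4.6, SciPy 1.17.1 and Matplotlib 3.10.9.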

Additional observations from a re-analysis of the deposited data

How the results depend on the processing

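With 4 libraries no permutation p can be below 0.333, and depth per library is unknown. The difference in collagen regions per library (−1.5) kept its sign under all alternatives except leaving out siChst7 replicate 2 (4.5) or siControl replicate 1 (0), and ran from −7.5 to 4.5 when libraries were left out. It was −4.5 with gene bodies and 5 kb on each side (exact permutation p = 0.333, the smallest possible) and −2.5 within 20 kb. The numbers over all genes under the gene-body rule are not given here. With the replicate block it was −1.5 (exact p = 1, smallest possible 0.5), from pair differences of 3 and −6. Same-numbered libraries deviated together only weakly (correlation 0.102 over 21900 genes), and the numbers are not known to pair cultures.

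With 50% reciprocal overlap the collagen genes with a region in all 4 lists numbered 2, the regions in all 4 lists 2 and the siControl-only regions 3. Gene bodies with 5 kb on each side gave 2 genes in both siChst7 lists, 2 genes and 2 regions in all 4 lists and 0 siChst7-only regions. Siting within 20 kb left 0 siChst7-only regions, and equal list length left 0 of either kind. A q of at most 0.001 and a fold of at least 5 each left 0 siControl-only regions, and joining peaks less than 500 bp apart gave 2. Summit windows and the nearest gene start moved none of these counts by more than 1.5 times. Genes without a listed start kept both ends in the latter. Shares over all genes and all regions under these settings are not given here. Whether the moves are particular to the collagen genes was therefore not tested.

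Leaving out each library gave 4 to 7 genes with a region in all remaining siChst7 lists, 6 to 7 in siControl and 4 to 6 in all lists. It gave 4 to 9 regions in all lists, 1 to 6 siChst7-only and 1 to 5 siControl-only regions. The highest values of 7 and 6 genes, 9 regions and 6 siChst7-only regions came without siChst7 replicate 2, and the 5 siControl-only regions without siChst7 replicate 1. Fewer lists then have to agree, by construction. Shares of all genes and of regions in all lists under each omission are not given here. Those of the group-only regions are given above. The planned motif window alternative was not run.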
